A study of Homo sapiens with 15 samples.

Results

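The genes described here are the replication-dependent core histone genes of human cells, the copies of H2A, H2B, H3 and H4 that lie in the histone clusters HIST1 to HIST4. They were chosen by name alone, as every row of the deposited table whose symbol begins with HIST1, HIST2, HIST3 or HIST4 and goes on with one of those 4 classes. That gave 67 of 23368 rows, with 18 genes of class H2A, 20 of H2B, 14 of H3 and 15 of H4. Cluster HIST1 on chromosome 6 holds 50 of them, HIST2 and HIST3 on chromosome 1 hold 13 and 3, and HIST4 on chromosome 12 holds 1. Linker histone genes were left out and are used below only for comparison.

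RNA was sequenced from U2OS, an osteosarcoma line with wild-type p53, given Nutlin, which blocks the p53 antagonist MDM2, or its solvent DMSO. Nutlin asynchronous cells (3 libraries) and DMSO asynchronous cells (3 libraries) grew without a block, and how long they had Nutlin is not stated in the sources used here. Nutlin non-released cells (2 libraries) and DMSO non-released cells (2 libraries) were held with thymidine at 2 mM for 16 h, freed for 8 h and held again for 16 h, with 10 µM Nutlin or DMSO present from 4 h before the time at which the other cells were released. In the labels the dose stands without its prefix, and it is taken as micromolar. Nutlin S-phase cells (2 libraries) and DMSO S-phase cells (3 libraries) had the same double block and the same agents, and were harvested 4 h after thymidine was washed out, with Nutlin kept in the medium. U2OS is 1 tumour-derived line, and nothing in the labels tells whether replicates came from separate cultures. All p-values below therefore measure only the spread between these libraries.

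Each nucleosome wraps DNA around a pair of each core histone, and cells make most of this protein in S-phase, when new DNA has to be packed. The mRNAs of these clusters are the animal mRNAs that usually end in a conserved stem-loop and carry no poly(A) tail. The stem-loop binding protein SLBP holds this hairpin, steers processing and translation, and lets the mRNAs be destroyed when replication stops. Transcription is driven by NPAT, which cyclin E and CDK2 phosphorylate in nuclear bodies that sit on the clusters.

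The hairpin was looked for in the annotated transcripts, as a 6-base stem and a 4-base loop, with 1 mismatch allowed in the stem. The search also asked for GG at the start, CC at the end, and a loop that begins with TT and ends with C or A. The likeness of the forms printed below is thus partly set by the search. It was found in 28 of the 34 genes whose transcripts in GENCODE v29 run at least 16 bases past the coding end. In the last 150 bases of 83047 other coding transcripts, the share with such a hairpin was 0.081%. The core histone genes were searched over all bases after the coding end, in any annotated transcript. In HIST1H2AG 1761 bases follow the hairpin, so the share in other transcripts is not a like measure. The 4 forms are printed once each, since RNAs that end in them usually carry no tail and would be sampled poorly by selection on poly(A). A hairpin in the annotation does not show that an RNA lacks a tail. HIST1H2AC and HIST1H2BC are among the genes reported to make tailed transcripts as well. They run 5′ to 3′, with the stem in capitals and the loop in lower case.
HIST1H2AC: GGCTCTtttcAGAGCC
HIST1H2BC: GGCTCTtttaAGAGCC
HIST1H4B: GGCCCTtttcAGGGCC
HIST1H2AG: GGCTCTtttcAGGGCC
The form of HIST1H2AC was shared by 17 genes and that of HIST1H2BC by 5. The form of HIST1H4B was found in 5 genes, all of class H4, and that of HIST1H2AG in that gene alone. The genes with a long enough transcript and no match included HIST1H2BJ, HIST1H4C and HIST1H4I, and a missing match says only that these letters are not in the annotated sequence.

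The copies of a class encode nearly or exactly the same protein, while their coding sequences differ. In class H4, 14 of 15 genes encode 1 protein of 103 residues, and in class H3 10 of 14 encode 1 protein of 136 residues. Classes H2A and H2B are more varied, with 11 and 14 distinct proteins. The first 60 coding bases of 4 H4 genes are printed because the levels of these genes across the 3 states are described one by one below, while their protein is the same. Capitals mark the 19 positions at which the 4 differ.
HIST1H4A: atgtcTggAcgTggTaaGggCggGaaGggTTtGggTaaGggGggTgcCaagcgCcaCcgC
HIST1H4C: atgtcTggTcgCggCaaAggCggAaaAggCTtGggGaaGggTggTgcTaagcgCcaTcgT
HIST1H4D: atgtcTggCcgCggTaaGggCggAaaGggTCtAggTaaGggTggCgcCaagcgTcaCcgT
HIST1H4I: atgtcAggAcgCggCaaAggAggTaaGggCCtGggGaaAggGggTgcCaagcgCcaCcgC
Of the 67 genes, 53 had under 50% of their 50-base words in another gene that does not overlap them, and 14 had 50% or more. Of the 53, 5 have most of their words in a gene that overlaps them, so their reads are uncertain as well as those of the 14. These 5 are HIST1H2AD and HIST1H3D (within AL031777.3), HIST1H2AK (within HIST1H2BN), HIST1H2AM (with HIST1H3J) and HIST2H2BC (with HIST2H2BD). The other 48 have at least 50% of their words in no other gene.

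Upstream sequence was available from RefSeq (GRCh38.p14) for 54 of the 67 genes, matched by symbol, and 250 bases were searched on both strands. The CCAAT box, letters CCAAT, was in all 16 H2A, 13 H2B and 12 H3 windows and in 3 of 13 H4 windows, against 33.04% of all 27305 promoters of the same length. The octamer, letters ATTTGCAT, was in 11 of 16 H2A and 9 of 13 H2B windows, in 1 of 12 H3 and 0 of 13 H4 windows, against 1.66% of all promoters. The letters GGTCCG, part of an element known from H4 promoters, were in 12 of 13 H4 windows and in 1 window each of the H2A, H2B and H3 genes, against 9.33% of all promoters. The letters TATAAA were in 12 H2A, 9 H2B, 9 H3 and 7 H4 windows, against 11.13%. HIST1H2AD and HIST1H3D have the same window here, so the octamer of the 1 H3 window is also counted for H2A. Windows of neighbouring genes on opposite strands can overlap, as for HIST1H2AG with HIST1H2BJ and HIST2H2AC with HIST2H2BE. With both strands searched, a site in the overlap counts for both genes, so the windows are not independent. The H2A and H2B windows with GGTCCG are those of HIST2H2AC and HIST2H2BE. The 120 bases upstream of the gene with the largest change between states and of the most abundant H4 gene are shown with these motifs, or their reverse complements, in capitals. They lie on the minus strand at chr6:27132796-27132915 for HIST1H2BJ and at chr6:26027284-26027403 for HIST1H4B.
HIST1H2BJ: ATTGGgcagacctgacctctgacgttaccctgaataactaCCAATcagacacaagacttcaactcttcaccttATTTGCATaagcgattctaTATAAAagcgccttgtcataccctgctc
HIST1H4B: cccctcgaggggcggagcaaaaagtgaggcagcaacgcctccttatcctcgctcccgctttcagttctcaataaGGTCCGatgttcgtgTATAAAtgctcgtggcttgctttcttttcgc

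Levels are given below as normalised reads, that is, reads recovered from the deposited values and divided by each library's size factor, and libraries are listed in the order of their replicate numbers. Libraries held 6.05 to 23.38 M reads, so a gene with 0 reads lies under 0.128 to 0.496 reads per M, the limit that 3 reads set. Of 10 osteoblast and mesenchymal markers looked for, 9 had reads, at a summed level of 58881 to 86830, with TWIST1 at 0 in all libraries and COL1A2 near 0, and blood markers were low (56 to 131). The library labelled DMSO asynchronous replicate 3 stood apart. All 12 epithelial markers were highest in it, at a summed level of 43054 against 12574 to 17599 elsewhere, and the p53 targets CDKN1A and MDM2 read 17534 and 27816 there, as high as under Nutlin. CDKN1A read 12177, 11607 and 12239 in Nutlin asynchronous libraries and 2773 and 2741 in the other 2 DMSO ones, and MDM2 26679, 24715 and 23964 with Nutlin and 5507 and 5746 with DMSO. In this state CDKN1A differed by 1.22 ± 0.49 from 15 libraries (adjusted p = 0.305) and by 2.10 ± 0.08 from 13 (adjusted p = 7.59e-10). DMSO S-phase replicate 2 was the shallowest library, with COL1A1 at 9927 against at most 3697 elsewhere, and is treated in the same way, so that results are given from all 15 libraries and also from the 13 without these 2. Differences are on the scale of the deposited values, which is log2 at high expression and compressed at low read numbers, so those of genes with few reads are understated. They are followed by ± the standard error of limma, and a gene is called at an adjusted p under 0.05. Over all tested genes the median difference lay between -0.03 and 0.02 in every comparison, from 15 or 13 libraries.

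The core histone genes fell into abundant and near-silent copies. Of the 67, 33 averaged at least 100 normalised reads over the 15 libraries, and they lay in HIST1 (29 genes), HIST2 (3 genes) and HIST4 (1 gene). In 6 genes, the pairs HIST2H2AA3 and HIST2H2AA4, HIST2H3A and HIST2H3C, and HIST2H4A and HIST2H4B, 0 was listed in all 15 libraries. Between 95.1% and 100% of the 50-base words of these 6 occur in another gene, and H3F3A, a replacement histone gene that most cells use, was listed at 0 as well. Whether the authors' counting left out their reads was not tested, and they are not read as silent. A filter that asks for 2 libraries at least 1 unit above the lowest value kept 41 of the 67 genes, 11 of H2A, 14 of H2B, 7 of H3 and 9 of H4. The other 20 genes with any read were not tested, and none of them passed 44.7 normalised reads in any library. A gene with few reads passes it only through the libraries in which it is high, so the counts below describe these 41 and not all members.

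Per kb of coding sequence, the most abundant H3 gene was HIST1H3B, at a mean of 2516 reads per kb per M over the 15 libraries, ahead of HIST1H3D at 813 and HIST1H3A at 800.2. In class H2A, HIST1H2AG led at 2283, then HIST1H2AH at 1742 and HIST1H2AC at 1026. In class H2B, HIST1H2BJ led at 1807, then HIST1H2BK at 1392 and HIST1H2BC at 1372. These levels differ among copies that encode similar proteins, but HIST1H2BK shares 74.1% of its words with other genes and HIST1H3D all of its words with the overlapping AL031777.3, so their reads may be split or left out. In class H4, HIST1H4B led at 1374, then HIST1H4H at 1176 and HIST1H4E at 1033, each with under 2% of its words elsewhere. All reads of a gene were divided by its coding length, while annotated transcripts differ, with 2250 bases for HIST1H2AG and 387 for HIST1H2AH. Reads past the coding end may raise some copies in these rankings, which was not tested. The copies reported from testis stayed near 0, with at most 10.7 normalised reads for HIST1H2AA, 33.6 for HIST1H2BA and 1.4 for HIST3H3. The reading of HIST3H3 lies within the limit of 3 reads in every library.

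**Figure D1:**
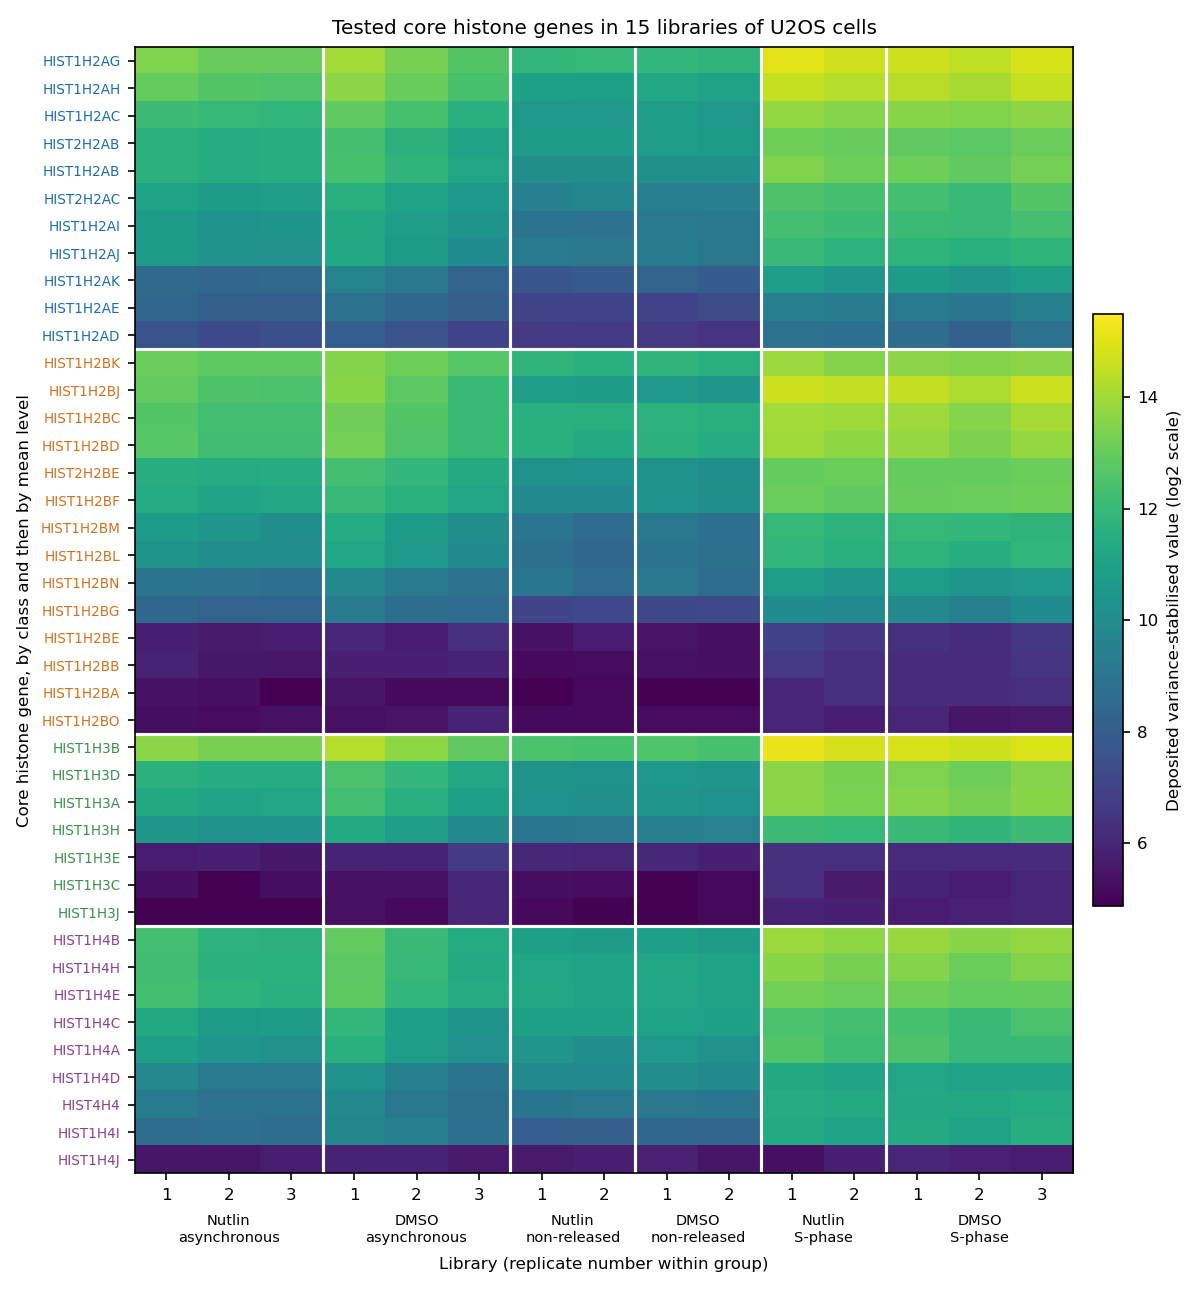
Deposited values on the log2 scale of the 41 tested core histone genes (rows, by class and mean level) in the 15 libraries (columns, by state, with Nutlin left of DMSO). S-phase libraries are the brightest for nearly every abundant gene and non-released libraries the darkest for most H2A, H2B and abundant H3 genes, while HIST1H4C, HIST1H4D and HIST4H4 stay as bright in non-released as in asynchronous cells.

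Summed over all 67 genes, core histone reads made up little of an asynchronous library and became more than 1% of every S-phase library. Their share was 0.691%, 0.545% and 0.538% in Nutlin asynchronous and 1.03%, 0.7% and 0.472% in DMSO asynchronous libraries. It was 0.299% and 0.292% in Nutlin non-released and 0.333% and 0.292% in DMSO non-released libraries. It was 2.05% and 1.72% in Nutlin S-phase and 1.88%, 1.57% and 1.97% in DMSO S-phase libraries. No S-phase library overlapped with a non-released or asynchronous one, and no non-released library with an asynchronous one. The mean normalised sum in DMSO S-phase cells was 6.1 times that in DMSO non-released cells, and in Nutlin S-phase cells 6.91 times that in Nutlin non-released cells. More cells in S-phase and more histone RNA per cell cannot be told apart in bulk RNA.

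**Figure D2:**
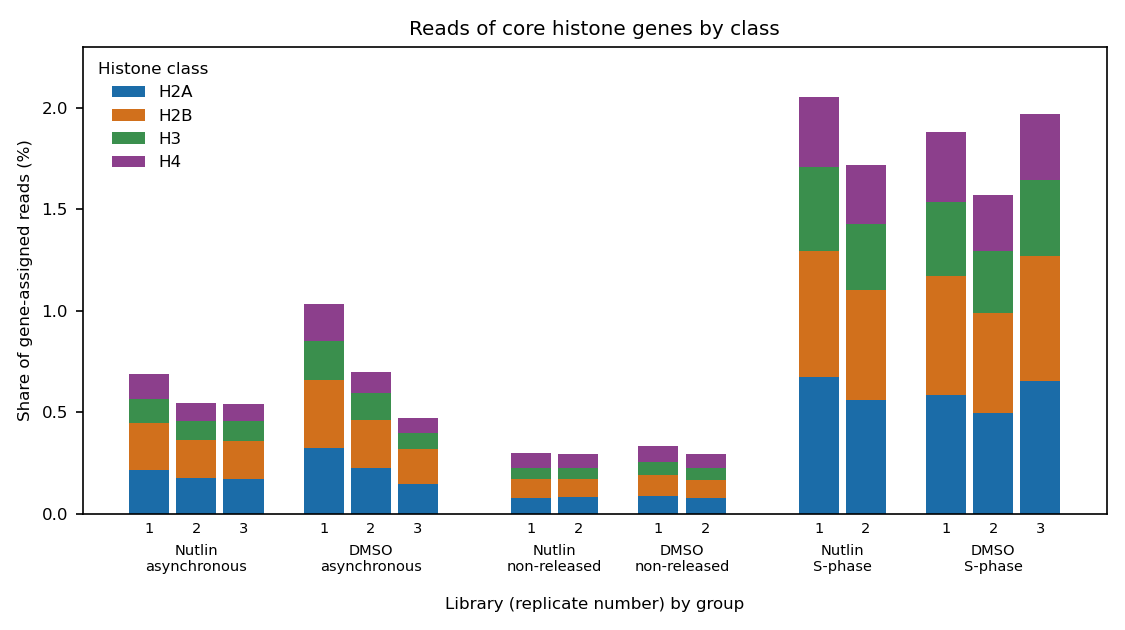
Share of gene-assigned reads (%, bars from 0) taken by core histone genes in each library, split by class, with Nutlin left of DMSO in each state. S-phase libraries reach 1.57 to 2.05%, non-released libraries stay between 0.292 and 0.333%, and the 3 DMSO asynchronous libraries spread from 0.472 to 1.03%.

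The classes did not keep the same proportions. In asynchronous cells H4 made up 16.4% ± 1.4 of core histone reads with Nutlin and 16.1% ± 1.5 with DMSO (SD, n = 3 each). In non-released cells the H4 part was 23.8% ± 0.4 with Nutlin and 23.6% ± 0.4 with DMSO (SD, n = 2 each), and in S-phase cells 17.0% ± 0.1 with Nutlin (n = 2) and 17.4% ± 1.0 with DMSO (n = 3). The H2A part was lowest in non-released cells, at 26.5% ± 1.4 with Nutlin and within 1 SD of that with DMSO, and ran from 31.5% to 32.8% in the other 4 groups. H3 held between 17.9% and 19.4% in all 6 groups. These proportions are descriptions and carry no test.

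Release into S-phase was set against the continued block in DMSO cells. Of the 41 tested genes, 38 were higher in S-phase cells and 0 lower, against 4.11% of all 14298 tested genes called higher (limma). Their median difference was 2.24 on the log2 scale, against -0.01 over all genes. The 3 genes without a call were HIST1H2BO, HIST1H3E and HIST1H4J, all of which stayed under 100 normalised reads. In 40 of the 41 genes, all 5 S-phase libraries lay above all 4 non-released ones. How many of all tested genes separate in this way was not counted.

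The H2B gene HIST1H2BJ had the largest difference. It read 23196, 18769 and 25381 in DMSO S-phase libraries and 1513 and 1336 in DMSO non-released ones, a difference of 3.92 ± 0.31 (SE; adjusted p = 1e-05). Even the lowest S-phase library held over 10 times the reads of the highest non-released one. The H2A gene HIST1H2AH read 20893, 17613 and 24171 in DMSO S-phase and 2314 and 1968 in DMSO non-released libraries, a difference of 3.24 ± 0.26 (adjusted p = 1.01e-05). The H3 gene HIST1H3A read 12104, 10165 and 12411 in S-phase and 1283 and 1195 in non-released libraries, a difference of 3.16 ± 0.27 (adjusted p = 1.38e-05). Both sets of libraries were far apart for each of these genes, and the S-phase spread was narrow. HIST1H2AI, an H2A gene that shares 62.3% of its words with HIST1H2AJ, differed by 3.02 ± 0.20 (adjusted p = 3.11e-06). The most abundant H3 gene, HIST1H3B, read 29786, 26153 and 30305 in S-phase and 6029 and 5379.6 in non-released libraries, a difference of 2.32 ± 0.28 (adjusted p = 0.000247).

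By class, all 11 H2A genes were called higher in S-phase than in non-released DMSO cells (median 2.82), 13 of 14 H2B (2.17), 6 of 7 H3 (2.32) and 8 of 9 H4 (1.95). Among abundant H4 genes, HIST1H4B, the most abundant, differed by 2.97 ± 0.32 (adjusted p = 8.67e-05), HIST1H4H by 2.24 ± 0.31 and HIST1H4E by 1.95 ± 0.29. HIST1H4C, whose coding start is printed above, read 5324, 4057 and 5532 in DMSO S-phase and 2067 and 1896 in DMSO non-released libraries, a difference of 1.29 ± 0.32 (adjusted p = 0.0292). HIST1H4C was named after its values were seen. HIST4H4, the single gene of the chromosome 12 cluster, rose by 2.22 ± 0.23 (adjusted p = 6.11e-05), and the 3 tested HIST2 genes had a median difference of 2.79.

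With Nutlin the same comparison gave 35 genes higher in S-phase and 0 lower, against 1.60% of all tested genes called higher, with a median of 2.43. HIST1H2BJ read 26081 and 23749 in Nutlin S-phase and 1683 and 1584 in Nutlin non-released libraries, a difference of 3.88 ± 0.34 (adjusted p = 2.42e-05). HIST1H2AH differed by 3.53 ± 0.29 (adjusted p = 1.65e-05), HIST1H2AI by 3.30 ± 0.22 and HIST1H3A by 3.23 ± 0.30. The groups did not overlap for any of these 4 genes. From 13 libraries, 39 genes were higher in S-phase with either agent, against 7.90% of all tested genes with DMSO and 6.30% with Nutlin.

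**Figure D3:**
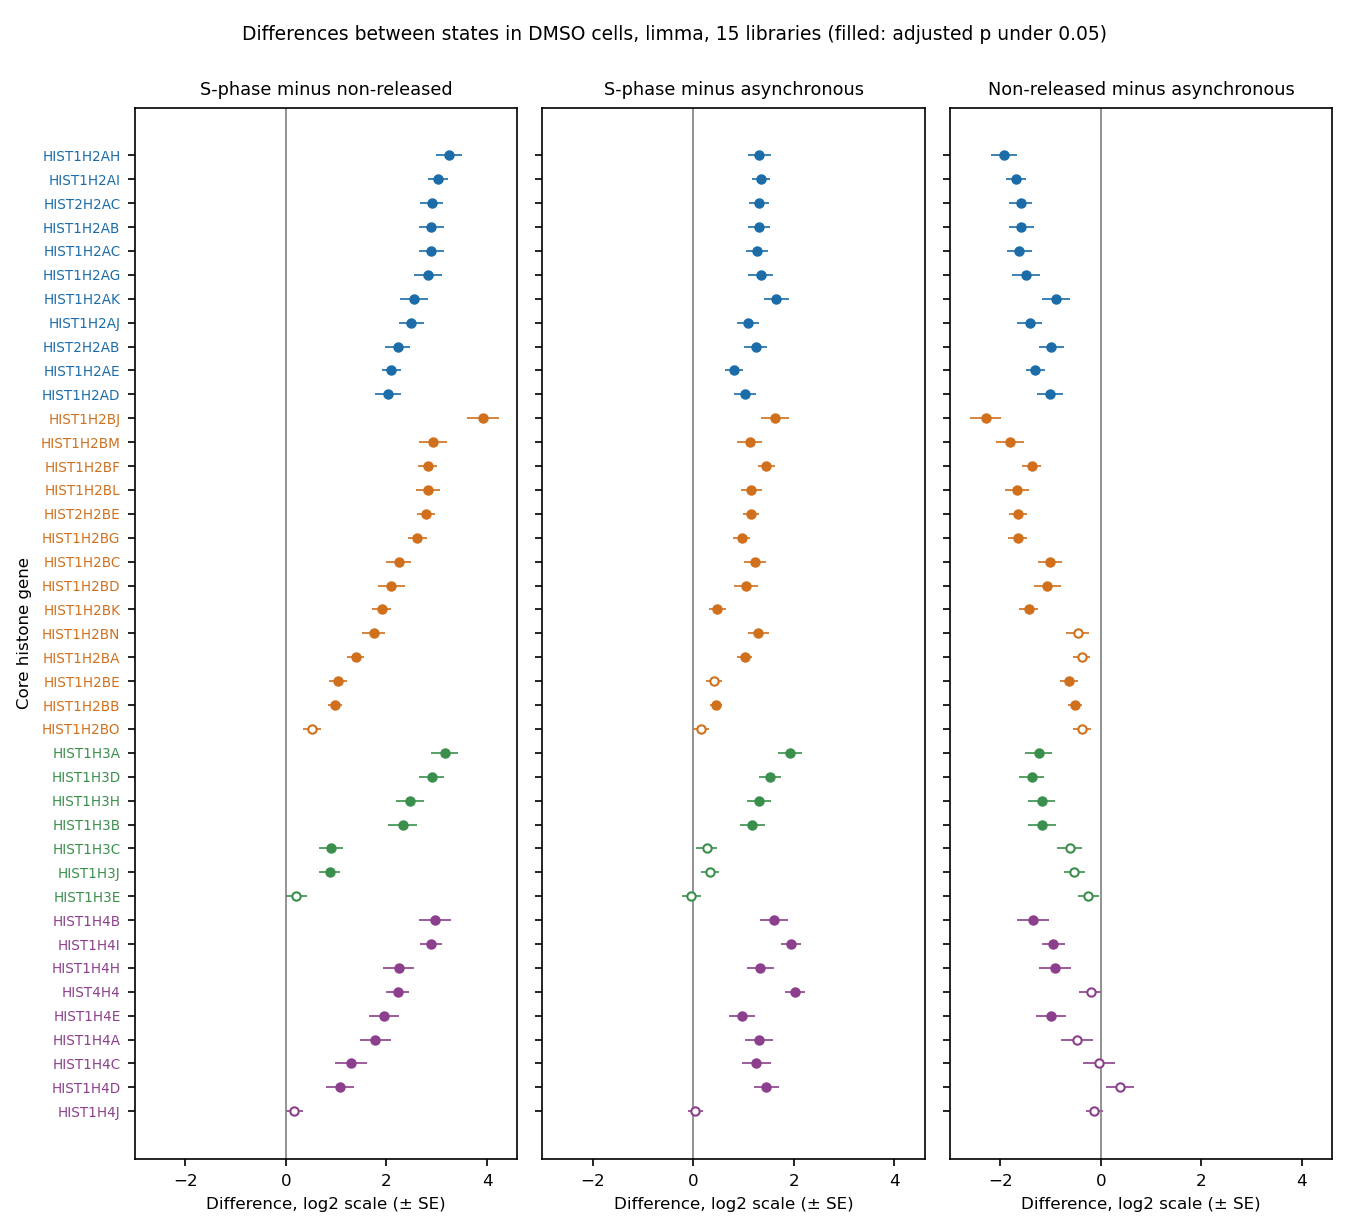
Differences between states in DMSO cells on the log2 scale with their SE for the 41 tested genes, by class, with filled points at adjusted p under 0.05 (limma, 15 libraries). Points for S-phase minus non-released lie from 0.17 to 3.92, those for S-phase minus asynchronous from -0.04 to 2.02, and those for non-released minus asynchronous from -2.29 to 0.38, with HIST1H4D the single gene above 0.

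Against asynchronous cells, S-phase cells held more RNA of most copies. In DMSO cells 35 genes were higher in S-phase and 0 lower, against 14.1% of all tested genes called higher, with a median of 1.24 against -0.01 over all genes. HIST4H4 led at 2.02 ± 0.20 (adjusted p = 3.68e-05), reading 2458, 2321 and 2619.8 in DMSO S-phase and 887, 520.1 and 385 in DMSO asynchronous libraries. All S-phase libraries lay above all asynchronous ones for this gene. HIST1H4I, an H4 gene, followed at 1.95 ± 0.20 (adjusted p = 4.01e-05), then HIST1H3A at 1.93 ± 0.24 and the H2A gene HIST1H2AK at 1.65 ± 0.25 (adjusted p = 0.000152 and 0.000539). HIST1H2AK lies wholly within the longest annotated transcript of HIST1H2BN, and without the strand of the libraries their reads cannot be told apart. Across both agents, 34 of the 41 genes had every S-phase library above every asynchronous one, a separation that was not counted over all tested genes.

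With Nutlin, 40 genes were higher in S-phase than in asynchronous cells and 0 lower, against 13.4% of all tested genes called higher, with a median of 1.59. The gene without a call was HIST1H4J, at -0.02 ± 0.17, with under 21 normalised reads in every library and 81.2% of its words shared with HIST1H4K. HIST1H4I read 2595 and 2030.0 in Nutlin S-phase and 351, 371 and 349 in Nutlin asynchronous libraries, a difference of 2.51 ± 0.22 (adjusted p = 1.6e-05). HIST4H4 differed by 2.42 ± 0.23, HIST1H3A by 2.32 ± 0.27 and HIST1H2AK by 2.14 ± 0.28 (adjusted p = 2.42e-05, 0.000104 and 0.000208). The DMSO and Nutlin comparisons use different libraries on both sides. From 13 libraries, 38 genes were higher in DMSO S-phase than in DMSO asynchronous cells, with a median of 1.00, and 40 with Nutlin, against 15.6% and 21.7% of all tested genes.

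In cells held in the thymidine block, most H2A and H2B copies and some H3 and H4 copies were lower than in asynchronous cells. In DMSO cells 30 genes were lower in non-released than in asynchronous cells and 0 higher, against 17.0% of all tested genes called lower, with a median of -1.06. All 11 H2A genes were called (median -1.48), 11 of 14 H2B (-1.21), 4 of 7 H3 (-1.16) and 4 of 9 H4 (-0.47). HIST1H2BJ again moved most, at 1513 and 1336 reads in non-released and 12575, 7049.9 and 4186 in asynchronous DMSO libraries (difference -2.29 ± 0.31, adjusted p = 0.000142). HIST1H2AH differed by -1.93 ± 0.26, the H2B gene HIST1H2BM by -1.81 ± 0.28 and HIST1H2AI by -1.68 ± 0.20 (adjusted p = 0.000142, 0.000367 and 5.82e-05). Every non-released library lay below every asynchronous one for 29 of the 41 genes, over both agents. The share of all tested genes with this separation was not counted. From 13 libraries, 32 genes were lower, against 24.2% of all tested genes, with a median of -1.34.

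Among H4 copies, HIST1H4B (difference -1.35 ± 0.32), HIST1H4E (-0.99 ± 0.29), HIST1H4H (-0.91 ± 0.31) and HIST1H4I (-0.94 ± 0.22) were lower in DMSO non-released than in DMSO asynchronous cells. The remaining abundant H4 copies did not pass the test, and are named here after their values were seen. HIST1H4C read 2067 and 1896 in non-released and 3735, 1809 and 1251 in asynchronous DMSO libraries (-0.04 ± 0.32, adjusted p = 0.933). HIST1H4D read 1029 and 896 in non-released and 1223, 695 and 444 in asynchronous libraries (0.38 ± 0.28, adjusted p = 0.335). HIST4H4 (-0.20 ± 0.23) and HIST1H4A (-0.47 ± 0.31) gave adjusted p of 0.537 and 0.265. For HIST1H4C and HIST1H4D, non-released libraries lay within the range of the asynchronous ones. Without the library labelled DMSO asynchronous replicate 3 and DMSO S-phase replicate 2, HIST1H4A was lower too (-0.80 ± 0.25, adjusted p = 0.0165), and HIST1H4C, HIST1H4D and HIST4H4 were not called (-0.39 ± 0.25, 0.05 ± 0.22 and -0.45 ± 0.18). A missed threshold does not show that their levels were equal, and the difference between H4 copies was not tested.

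With Nutlin, 26 genes were lower in non-released than in asynchronous cells and 0 higher, against 17.2% of all tested genes called lower, with a median of -0.91. HIST1H2BJ differed by -1.91 ± 0.31, HIST1H2AH by -1.82 ± 0.26, HIST1H2BM by -1.64 ± 0.28 and HIST1H2BL, also H2B, by -1.59 ± 0.24 (adjusted p = 0.000502, 0.000213, 0.00074 and 0.000284). Of the 9 tested H4 genes, 2 were called lower. From 13 libraries, 29 genes were lower and 1 higher, against 24.6% and 25.2% of all tested genes. The gene called higher was HIST1H3E, an H3 gene with few reads (22.2 and 18.5 in Nutlin non-released and 10.8, 12.5 and 6.4 in Nutlin asynchronous libraries; 0.35 ± 0.12, adjusted p = 0.0289). These counts depend on single libraries of groups of 2. Without DMSO non-released replicate 2, or without either Nutlin non-released replicate, fewer core histone genes were called lower with that agent. Fewer of all tested genes were called lower in these fits too, which leave 1 library in a group.

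Some copies are reported to make tailed transcripts beside the tailless form, and 6 such genes were looked at together. In DMSO cells all 6 were higher in S-phase than in non-released cells (median 2.23) and 5 of 6 were lower in non-released than in asynchronous cells (median -1.24), beside medians of 2.24 and -1.06 over the 41 tested genes. Over all tested genes, 4.11% were called higher in the first comparison and 17.0% lower in the second. HIST2H2BE read 7966, 7992 and 8721 in DMSO S-phase and 1196 and 1089 in DMSO non-released libraries (2.79 ± 0.18). HIST1H2AC differed by 2.89 ± 0.25, HIST1H2BC by 2.24 ± 0.24, HIST1H2BD by 2.10 ± 0.27 and HIST1H2BK by 1.91 ± 0.19 between these groups. HIST1H2BK had a small difference between DMSO S-phase and DMSO asynchronous cells (0.48 ± 0.17, adjusted p = 0.0497; 0.31 ± 0.14, adjusted p = 0.104 from 13 libraries). Between DMSO S-phase and DMSO asynchronous cells the 6 ran from 0.48, for HIST1H2BK, to 2.02, for HIST4H4, which had the largest difference of the 41. Of the copies reported from testis, only HIST1H2BA passed the filter, at 28.1, 26.5 and 33.6 reads in DMSO S-phase and 0 and 0 in DMSO non-released libraries.

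The question put by the Nutlin arm was whether p53 activity changes these genes in each state. In asynchronous cells no core histone gene passed the test with 15 libraries (limma), against 2.45% of all tested genes called and 0.546% called lower. Voom gave 0 calls. An unadjusted p under 0.05 (limma) was found for 7 of the 41 genes, against 1735 of all 14298 tested genes. All 41 differences were negative, with a median of -0.28 against -0.02 over all genes. From 13 libraries, 16 genes were lower with Nutlin, against 2.46% of all tested genes called lower, and the median was -0.53. These were 5 H2A, 6 H2B, 4 H3 and 1 H4 genes. The largest were HIST1H4I (-0.95 ± 0.10, adjusted p = 2.9e-05), HIST1H2AK (-0.89 ± 0.14, adjusted p = 0.00134) and HIST1H3A (-0.75 ± 0.15, adjusted p = 0.00554).

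The calls turned on which libraries were kept. HIST1H4I read 351, 371 and 349 with Nutlin and 807, 679 and 378 with DMSO, so that the library labelled DMSO replicate 3 lay just above the Nutlin libraries and the other 2 far above them. HIST1H2AK read 314, 272 and 315 with Nutlin and 728, 493 and 249.7 with DMSO, and HIST1H3A 2533, 2094 and 2173 with Nutlin and 4831, 3049 and 1791 with DMSO. In both, the library labelled DMSO replicate 3 lay below every Nutlin library. Without that library alone 8 core histone genes were lower, without DMSO replicate 2 alone 1, and without DMSO replicate 1 alone 0. Of all 14298 tested genes, 119, 28 and 53 were called lower in these fits. The single core histone gene without DMSO replicate 2 was HIST1H3J, named after its values were seen. It read 0 in all 3 Nutlin libraries and 3.1, 0.9 and 20.3 with DMSO. Its highest value is thus that of the library labelled DMSO replicate 3. Levels of 2 RNAs that carry no poly(A) tail are given beside this. RMRP, the RNA of a nuclease that cleaves ribosomal RNA precursors, read 259335, 156213 and 148327 with Nutlin and 294032, 143058 and 100797 with DMSO, and RPPH1, the RNA of ribonuclease P, 246369, 154921 and 147941 with Nutlin and 311331, 142934 and 122217 with DMSO. Replicate 1 was highest in both treatments for both RNAs and for the histone sum, and the part of this in the histone differences was not tested.

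**Figure D4:**
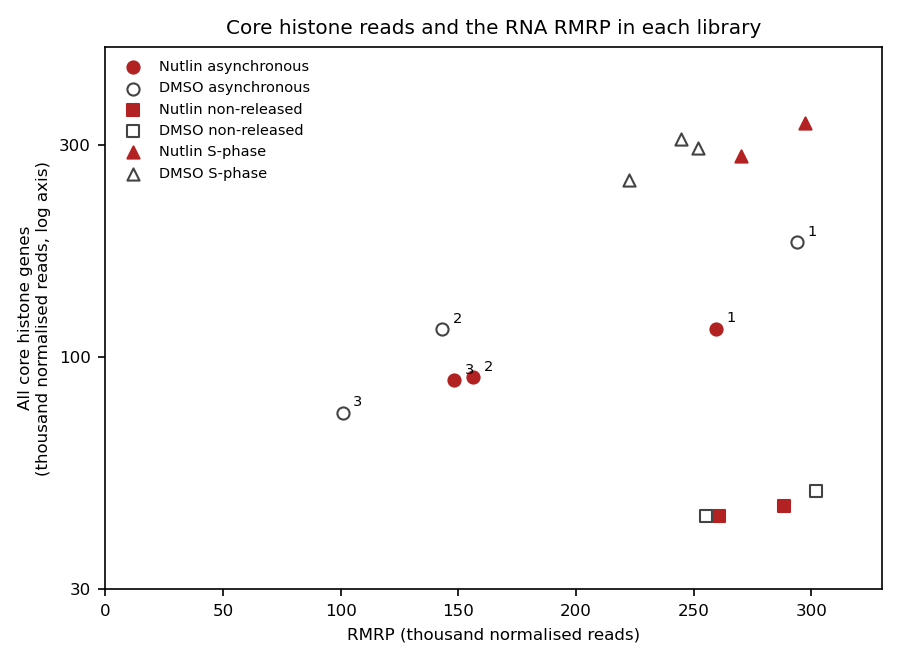
Summed normalised reads of all core histone genes (log axis) against those of RMRP (in the unit printed on the axis) in each library, with circles for asynchronous (numbered by replicate), squares for non-released and triangles for S-phase cells, filled for Nutlin and open for DMSO. Among asynchronous libraries both values are highest in replicate 1 of each treatment, while non-released and S-phase libraries differ in histone reads at similar RMRP reads.

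Between states RMRP did not show the order of the histone genes. It read 297366 and 270176 in Nutlin S-phase and 251826, 222390.2 and 244492 in DMSO S-phase libraries, and 288284 and 260768 in Nutlin non-released and 302116 and 255029 in DMSO non-released libraries. Its difference between S-phase and non-released DMSO cells was -0.21 ± 0.35 (adjusted p = 0.789), and none of the 9 tested RNAs without a tail was called there (0 with voom, and 0 at an unadjusted p under 0.05), against 6.99% of all tested genes. Between non-released and asynchronous DMSO cells 2 of the 9 were called lower, against 17.0% of all tested genes. They were RNU4ATAC at -0.52 ± 0.14 and VTRNA1-1 at -0.58 ± 0.21, named after their values were seen. Differences of the 9 ran from -0.58 to 0.96, with 4 above 0 and 5 below. Between S-phase and asynchronous DMSO cells the 9 ran from -0.51 to 1.28, again with 4 above 0 and 5 below. There 0 were called higher and 1 lower, against 2012 and 1943 of all 14298 tested genes. The ribosomal precursor RN45S took 0.1 to 3.7% of reads and spread widely within groups.

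**Figure D5:**
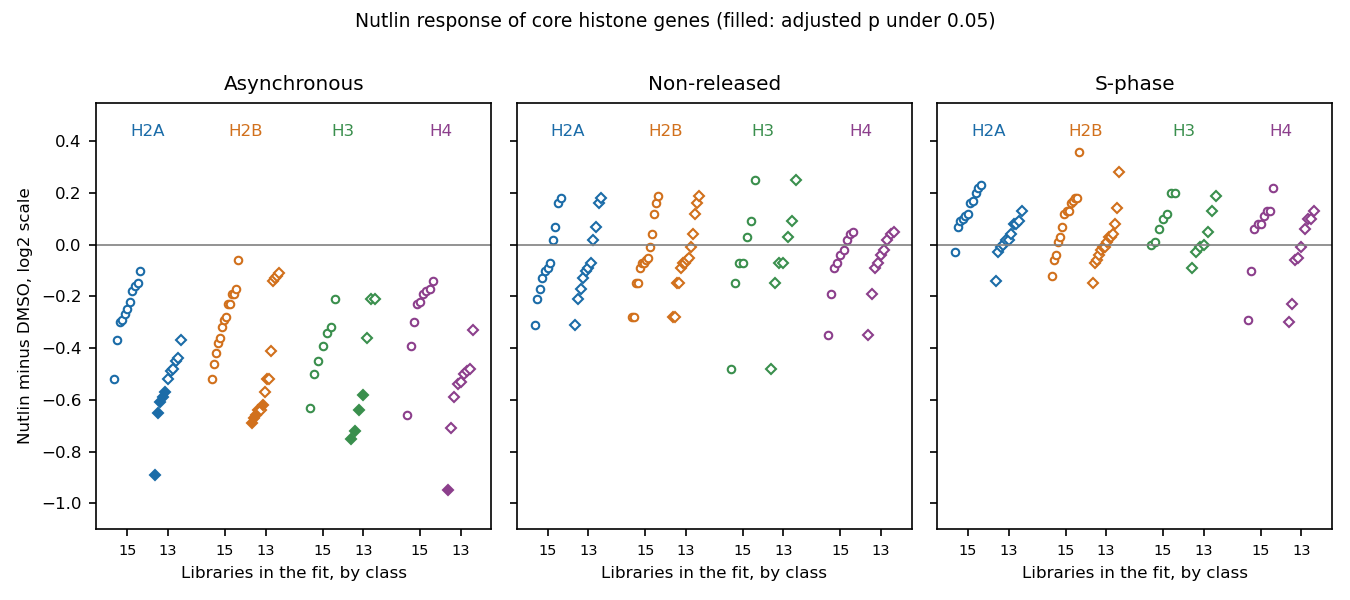
Nutlin minus DMSO difference (log2 scale) of each tested core histone gene in the 3 states, by class, from 15 libraries (circles) and 13 libraries (diamonds), filled at adjusted p under 0.05. Asynchronous points lie below 0 in both fits and 16 of the diamonds are filled, while non-released and S-phase points lie on both sides of 0 with none filled. From 15 libraries, 27 of the 41 non-released points lie below 0 and 34 of the 41 S-phase points above it.

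In non-released cells no core histone gene passed the test under Nutlin, against 0.916% of all tested genes called (limma; 0 at an unadjusted p under 0.05, and 0 with voom). Differences ran from -0.48 to 0.25 with a median of -0.07, and 27 were below 0 and 14 above. From 13 libraries 0 were called as well, against 3.21% of all tested genes. An unadjusted p under 0.05 was found there for 3 core histone genes, against 1717 of all 14298 tested genes. The most abundant H3 gene, HIST1H3B, read 5493 and 5336 with Nutlin and 6029 and 5379.6 with DMSO, and HIST1H2AG 3742 and 3928 with Nutlin and 3785 and 3495 with DMSO. The agents overlapped for both genes, and HIST1H2AG differed by 0.07 ± 0.30. When only the 4 non-released libraries were fitted, 1 core histone gene was called lower with Nutlin, against 116 of all 14298 tested genes. It was HIST1H3H, which had a difference of -0.48 ± 0.30 and an adjusted p of 0.999 in the limma fit of 15 libraries. HIST1H3H encodes an H3 and was named after its values were seen.

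In S-phase cells none passed either, against 2.00% of all tested genes called (limma; 0 at an unadjusted p under 0.05, and 0 with voom). The median was 0.11 from 15 libraries and 0.01 from 13, with differences from -0.29 to 0.36 in the first. From 15 libraries 34 differences were above 0 and 7 below. From 13 libraries 0 were called, against 3.94% of all tested genes, with 0 at an unadjusted p under 0.05. HIST1H3B read 37129 and 29159 with Nutlin and 29786, 26153 and 30305 with DMSO, and HIST1H4B 15355 and 13351 with Nutlin and 14719, 12391 and 14058 with DMSO. Both genes overlapped between the agents. The difference for HIST1H4B was 0.06 ± 0.32, within its own standard error. CDKN1A read 14907 and 18432 with Nutlin and 4393, 3432 and 4598 with DMSO in the same libraries.

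The Nutlin response itself was compared between states. None of the 14298 tested genes, and so no core histone gene, was called between non-released and asynchronous cells, between S-phase and asynchronous cells, or between S-phase and non-released cells (limma, 15 libraries; 0% of all tested genes in each, and 0 core histone genes with voom). Without the filter on low values, 34, 3 and 32 of all 23368 genes were called in these comparisons and again 0 core histone genes. With the filter, an unadjusted p under 0.05 was seen for 1, 4 and 0 core histone genes (limma, 15 libraries), against 155, 787 and 321 of all 14298 tested genes. The median difference in response was 0.20, 0.40 and 0.16. From 13 libraries 0 core histone genes were called, against 0.0210%, 0% and 0% of all tested genes. In that fit 17, 25 and 1 core histone genes had an unadjusted p under 0.05, against 453, 1180 and 595 of all 14298. The Nutlin response in asynchronous cells was thus not shown to differ from that in the other states.

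Linker histone genes encode H1, which binds the DNA between nucleosomes. In DMSO cells 5 of 6 tested linker genes were higher in S-phase than in non-released cells, 5 were higher in S-phase than in asynchronous cells and 4 were lower in non-released than in asynchronous cells, against 4.11%, 14.1% and 17.0% of all tested genes. HIST1H1C read 34685, 25480.3 and 17019 in DMSO asynchronous, 9599 and 8819.7 in DMSO non-released and 51037, 44464 and 52240.3 in DMSO S-phase libraries, and HIST1H1E differed by 2.49 ± 0.20 between S-phase and non-released cells. H1F0, a linker gene outside the clusters, differed by 1.39 ± 0.14. HIST1H1A was the linker gene with a Nutlin call in asynchronous cells from 15 libraries, reading 792, 768 and 881 with Nutlin and 1862, 1636 and 1161 with DMSO (-0.86 ± 0.19, adjusted p = 0.029). Its libraries did not overlap between the agents. It was also lower with Nutlin in non-released cells from 13 libraries (-0.79 ± 0.15, adjusted p = 0.00516).

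Replacement histone genes mostly have mRNAs with tails and are used outside S-phase as well. Of 9 tested, 1 was higher and 1 lower in S-phase than in non-released DMSO cells, against 4.11% and 2.89% of all tested genes, with a median of 0.02. H3F3B, a gene of the H3.3 variant, differed by 0.47 ± 0.13 (adjusted p = 0.0386) and by -0.53 ± 0.13 between non-released and asynchronous cells (adjusted p = 0.00574), and H3F3C by -0.39 ± 0.13 in the second comparison. H2AFY2, a macroH2A gene, read 222, 214 and 234 in DMSO asynchronous, 616 and 566 in DMSO non-released and 439, 376 and 412 in DMSO S-phase libraries, and was higher in non-released than in asynchronous cells (1.22 ± 0.13, adjusted p = 2.91e-05). H2AFJ was higher there as well (0.43 ± 0.12). From 13 libraries the centromeric variant CENPA and H2AFX, the variant phosphorylated at DNA breaks, were lower with Nutlin in asynchronous cells and are named after their values were seen (-0.62 ± 0.09 and -0.39 ± 0.09, adjusted p = 0.0005 and 0.0174). In the same fit H3F3C and H2AFX were also called higher in S-phase than in non-released DMSO cells, against 7.90% of all tested genes called higher.

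Of the 24 genes listed for making or removing histone mRNA, 5 were higher and 8 lower in non-released than in asynchronous DMSO cells, and 0 were higher and 1 lower in S-phase than in non-released cells. Over all tested genes, 16.9% were called higher and 17.0% lower in the first comparison, and 4.11% higher and 2.89% lower in the second. CCNE2, which encodes a cyclin E, read 542, 412 and 384 in DMSO asynchronous, 1278 and 1228 in DMSO non-released and 675, 537 and 723 in DMSO S-phase libraries, and differed by -0.91 ± 0.13 between S-phase and non-released cells (adjusted p = 0.00112). It was thus highest in the blocked cells, where core histone RNA was lowest. CCNE1 was higher in non-released than in asynchronous cells by 0.93 ± 0.13, and CASP8AP2, a protein of the nuclear bodies on the histone clusters, by 0.50 ± 0.12. SRRT, which works with the cap-binding complex, differed there by -0.58 ± 0.10. SLBP was not called in any comparison of states from 15 libraries. With Nutlin in asynchronous cells it read 717, 903 and 829, against 1289, 1218 and 1054 with DMSO (-0.51 ± 0.12, adjusted p = 0.0369), and CCNE2 differed by -0.56 ± 0.12 (adjusted p = 0.0241). For both genes every Nutlin library lay below every DMSO library.

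The library labelled DMSO asynchronous replicate 3 also held copies that the other 14 libraries nearly lacked. Of the 61 core histone genes with any read, 14 were highest in it and 43 in an S-phase library. Of those 14, 13 stayed under 20 normalised reads in every other library. These counts were not made over all genes, so they are not read as particular to histone genes. HIST1H4F read 43.6 there and 0 in all other libraries, HIST1H3F 41.6 against at most 8.2, and HIST1H2BI 44.7 against at most 12.3. None of these 3 has more than 3.3% of its words in another gene, and they were named after their values were seen. The linker genes HIST1H1B and HIST1H1D showed the same, at 74.1 and 82.2 against at most 1.4 and 2.6, as did the telomerase RNA TERC, at 311 against 0. The epithelial markers given above were high in the same library, and their part in this was not tested.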

How the data were processed

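RNA of U2OS cells was sequenced in 15 libraries (TruSeq kit, 1000 ng of total RNA, 50-nt reads from 1 end, as the labels' protocols say), with no strand setting stated there. The authors deposited variance-stabilised values on a log2 scale for 23368 genes. Per the submitters' processing notes, DESeq2 1.10.1, HTSeq, TopHat 0.9 and CASAVA 1.8.2 were used, with the build hg19. The values were turned back into reads, whole within 0.05 for at least 99.04% of genes in each library, giving 6.05 to 23.38 M reads a library. Limma 3.58.1 (R 4.3.3) was fitted to the deposited values of the 14298 genes that exceed the table's minimum (4.859) by at least 1 unit in no fewer than 2 libraries, with 1 mean per group, a mean-variance trend and Benjamini-Hochberg adjustment over all tested genes in each comparison, two-sided. The script was tested on simulated data. Stem-loops, coding starts and shared 50-base words came from GENCODE v29 transcripts, promoters from RefSeq (GRCh38.p14). Python 3.11.15 with pandas 2.3.3 was used for the rest. Alternatives were other filters, no trend, voom on recovered reads, median centring, fits of only the groups compared, a replicate block and leaving out libraries.

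Named genes are the 3 most abundant per class, the 4 largest differences per comparison and direction (all where 6 or fewer were called), the 3 largest from 13 libraries, all genes reported with tails or from testis, and up to 4 called genes of each comparison list. The members, lists and libraries left out were chosen with earlier results of these data known.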

Additional observations from a re-analysis of the deposited data

How the results depend on the processing

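With Nutlin in asynchronous cells, 16 core histone genes were called without both libraries that stand apart, against 0 from all 15, and leaving out 1 library at a time gave 0 to 8. The 8 came without the library labelled DMSO asynchronous replicate 3, and 1 without DMSO asynchronous replicate 2. Of all 14298 tested genes, 119 and 28 were called lower in these fits. With only the groups compared, 1 core histone gene was called lower with Nutlin in non-released cells, against 116 of all 14298 tested genes. Leaving out 1 library at a time gave 18 to 32 lower genes between non-released and asynchronous DMSO cells and 17 to 30 with Nutlin. Of all 14298 tested genes, at most 2989 (DMSO) and 3024 (Nutlin) were called lower in these fits, both without DMSO S-phase replicate 2. The fewest of all tested genes were called lower where the non-released group kept 1 library. These ranges are thus not read as particular to histone genes, and their cause was not tested. The other counts stayed within 1.5 times under every alternative run, and the 24 differences between states named as the largest (4 for each comparison) kept their direction and call in each. With voom, which does not compress low values, the median difference was 2.85 between DMSO S-phase and DMSO non-released cells and -1.44 between DMSO non-released and DMSO asynchronous cells. Samples with the same number deviated together in part, with all correlations positive (0.074 to 0.351). The replicate numbers were not taken as pairs in the main fit, and a block on them was run as an alternative. With a replicate block the Nutlin comparisons gave 0 calls in each state, against 397 (asynchronous), 166 (non-released) and 324 (S-phase) of all 14298 tested genes. The block gave 38 (DMSO) and 37 (Nutlin) genes for S-phase against non-released cells, 36 and 40 for S-phase against asynchronous cells, and 32 and 30 for non-released against asynchronous cells. Of all tested genes, 1347 and 450, 4346 and 3654, and 4985 and 5168 were called in these comparisons, in either direction. Groups of 2 or 3 libraries limit the precision, and copies under the limit of 3 reads cannot be called silent.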

Other observations

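Chaperones and importers of core histones are given here by values, and those named were chosen after their values were seen. Of 14 tested, 0 were called between S-phase and non-released DMSO cells, against 6.99% of all tested genes (limma). An unadjusted p under 0.05 was found for 3 of the 14, against 3012 of all 14298 tested genes. With voom 1 was called, CHAF1B, at -0.40. Between non-released and asynchronous DMSO cells 2 were higher and 2 lower, against 16.9% and 17.0% of all tested genes. ASF1B, a chaperone of H3 and H4, was higher in DMSO non-released than in DMSO asynchronous cells (1.08 ± 0.10, SE; limma, adjusted p = 1.5e-05) and higher in DMSO S-phase than in DMSO asynchronous cells (0.94 ± 0.09, adjusted p = 3.5e-05). CHAF1B, a subunit of the assembly factor CAF-1, was higher by 0.64 ± 0.11 in non-released cells and by 0.30 ± 0.10 in S-phase cells, each against asynchronous DMSO cells. HIRA, which places H3.3, differed by -0.59 ± 0.14 and the importin IPO4 by -0.74 ± 0.10 between non-released and asynchronous DMSO cells. With Nutlin in asynchronous cells, CHAF1B was the 1 chaperone called, at -0.45 ± 0.10 (adjusted p = 0.0241). From 13 libraries it stood at -0.44 ± 0.10 (adjusted p = 0.0172).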
